A study of Mus musculus with 6 samples.

Results

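The genes of MHC class I antigen presentation were followed across the cell lineages of treated B16-F10 melanomas. The 10 genes, of 32285 in the deposited gene list, were taken by name: the heavy chains *H2-K1* and *H2-D1*, the light chain *B2m*, the peptide transporter *Tap1* and *Tap2*, the loading factor *Tapbp*, the immunoproteasome subunits *Psmb8*, *Psmb9* and *Psmb10*, and the transactivator *Nlrc5*. All 10 were found under a single identifier each and passed the filter on low counts in each lineage tested. MHC class I molecules show peptides of a cell's own proteins to CD8+ T cells. Peptides are cut by proteasomes, pumped into the endoplasmic reticulum by the TAP transporter and loaded with the help of tapasin, the product of *Tapbp*. Interferon-γ induces most of these genes, and B16-F10, a transplantable C57BL/6 melanoma line, is known for low MHC class I that interferon-γ raises.

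The data are 10x 5′ single-cell RNA-Seq libraries of cells isolated with CD45 beads from B16-F10 tumors, with 3 samples from mice given αPD-1, an antibody to the T cell checkpoint receptor PD-1, and 3 from mice given αPD-1 + corin. Corin is a dual inhibitor of the LSD1 and HDAC activities of the CoREST complex, a chromatin repressor. The mice were female C57BL/6 of 6 to 10 weeks carrying tumors from 250000 B16F10 cells, and both groups received 150 µg αPD-1 3 times per week from day 7. The αPD-1 + corin group also received 200 µg corin daily by intraperitoneal injection from day 6, and per the labels mice without corin received a DMSO/PBS vehicle. Each arm held 10 mice, but the labels do not tie samples to mice, so p-values measure only the spread between these samples, which may be technical. Each mouse got a graft of the same line, and the melanoma cells and fibroblasts seen here are the cells that stayed in a preparation enriched for CD45+ cells.

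The 6 libraries held 52281422 to 84276739 UMIs (unique molecular identifiers, which count captured mRNA molecules) over 52899 barcodes, and 299 distinct barcodes occurred in more than 1 library. After the study's limits of 600 to 4000 genes and at most 10% mitochondrial UMIs, 28865 cells were kept. Melanoma cells were barcodes with at least 10 UMIs of *Pmel*, *Mlana*, *Dct* and *Tyrp1* and none of *Ptprc* (CD45). Of 7437 such barcodes, 1465 were kept (52 to 119 per αPD-1 sample and 250 to 551 per αPD-1 + corin sample), and 6759 when the upper limit on genes was lifted, so the treatment comparison, lineage differences and proteasome shares of melanoma cells are given both ways. Their identity held outside the gate, since 6 other melanocyte genes summed to between 2132 and 3718 CPM (the counts of a gene scaled to a common total of UMIs) in melanoma cells and to between 80.4 and 207 in fibroblasts. The fibroblasts numbered 38 to 588 cells per sample. The library of αPD-1 + corin sample 1 stood apart, with 13228 barcodes, 4621 monocytes and macrophages and 74 T cells, and the treatment comparison is therefore also given without it. Free immune RNA was tracked with 16 immune-only genes, which reached 14.5 to 319 CPM in melanoma cells, between 0.149% and 1.41% of their level in immune cells of the same sample. The highest value was that of αPD-1 + corin sample 1. Scaled by these genes, free RNA would supply 0.596% to 9.28% of the members' UMIs in melanoma cells and 4.10% to 12.5% in fibroblasts.

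Of the 10 genes, 7 lie in the MHC on chromosome 17. In GRCm39 these are *Tapbp* (chr17:34134873-34148267), *H2-K1* (chr17:34214987-34219321), *Psmb9* (chr17:34400960-34406738), *Tap1* (chr17:34405996-34416199), *Psmb8* (chr17:34416690-34420428), *Tap2* (chr17:34422501-34435829) and *H2-D1* (chr17:35481691-35486475). *B2m* lies at chr2:121977957-121983594, and *Nlrc5* (chr8:95160984-95253900) and *Psmb10* (chr8:106662362-106665077) lie on chromosome 8. The gene models of *Tap1* and *Psmb9* run in opposite directions and overlap by 743 bases (chr17:34405996-34406738). *H2-K1* and *H2-D1* are near copies of each other and of the *H2-Q* genes, so reads may have been shared or lost between them.

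Promoter windows of RefSeq (GRCm38.p6, 250 bases before to 50 after the start site) were at hand for 8 of the 10 genes, in 9 entries, with none for *Tap2* and *Nlrc5*. They are shown because the members moved together between samples. The stretches below mark in capitals an interferon response-like element (GAAANNGAA or GAANNGAAA), a palindromic element (TTCNNNGAA) or a CCAAT box, searched on both strands.
H2-K1 (chr17:34000389-34000477, minus strand): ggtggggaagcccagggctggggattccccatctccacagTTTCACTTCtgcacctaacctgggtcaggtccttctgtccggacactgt
H2-D1 (chr17:35262904-35262992, plus strand): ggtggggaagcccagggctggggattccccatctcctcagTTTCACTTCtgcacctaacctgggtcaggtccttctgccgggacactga
B2m (chr2:122147508-122147596, plus strand): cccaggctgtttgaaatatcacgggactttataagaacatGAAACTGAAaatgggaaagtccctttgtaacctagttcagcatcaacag
Psmb8 (chr17:34198058-34198146, plus strand): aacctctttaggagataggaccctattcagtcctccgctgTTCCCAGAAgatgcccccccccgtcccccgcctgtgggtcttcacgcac
Tap1 (chr17:34187306-34187378, plus strand): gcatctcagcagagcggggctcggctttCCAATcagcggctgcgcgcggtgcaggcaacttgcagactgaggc
The stretches of *H2-K1* and *H2-D1* had 85 of 89 bases in common and the same element, read as GAANNGAAA on the other strand. GAANNGAAA was in 3 of 9 member entries, the third being a second start site of *H2-K1*, and in 7.52% of all 32851 promoters. GAAANNGAA was in 1 of 9 (*B2m*) and in 8.56% of all, and a promoter can hold both. TTCNNNGAA was in 1 of 9 (*Psmb8*) and in 8.30% of all, and CCAAT in 7 of 9 and 37.4% of all. The windows of *Tap1* and *Psmb9* share 275 bases, among them the same CCAAT box, with start sites 226 bases apart on opposite strands. The entries of *H2-K1* overlap too, so the counts over 9 entries hold some sequence more than once. A match of letters is a description of the sequence and not a site of binding.

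In melanoma cells, MHC class I transcripts did not separate the treatments. They separated the αPD-1 + corin samples from each other: all 10 members were lowest in αPD-1 + corin sample 1 and highest in αPD-1 + corin sample 3, with the αPD-1 samples in between. *H2-K1*, a classical heavy chain, was at 279.8, 211 and 227 CPM with αPD-1 (samples 1 to 3) and at 179, 338 and 744 with αPD-1 + corin. *H2-D1*, the other classical heavy chain of this strain, was at 289, 430.0 and 307 with αPD-1 and at 184, 402 and 850.2 with αPD-1 + corin. The light chain *B2m* was at 1349, 1589.5 and 1229 with αPD-1 and at 868, 1539 and 2985 with αPD-1 + corin. For each of the 3 genes the αPD-1 samples fell within the range that the αPD-1 + corin samples spanned. The log2 difference of αPD-1 + corin against αPD-1 was 0.81 ± 0.37 (SE) for *H2-K1*, with adjusted p = 0.834 by edgeR's quasi-likelihood test. It was 0.52 ± 0.39 for *H2-D1* (adjusted p = 0.877) and 0.40 ± 0.33 for *B2m* (adjusted p = 0.903).

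**Figure D1:**
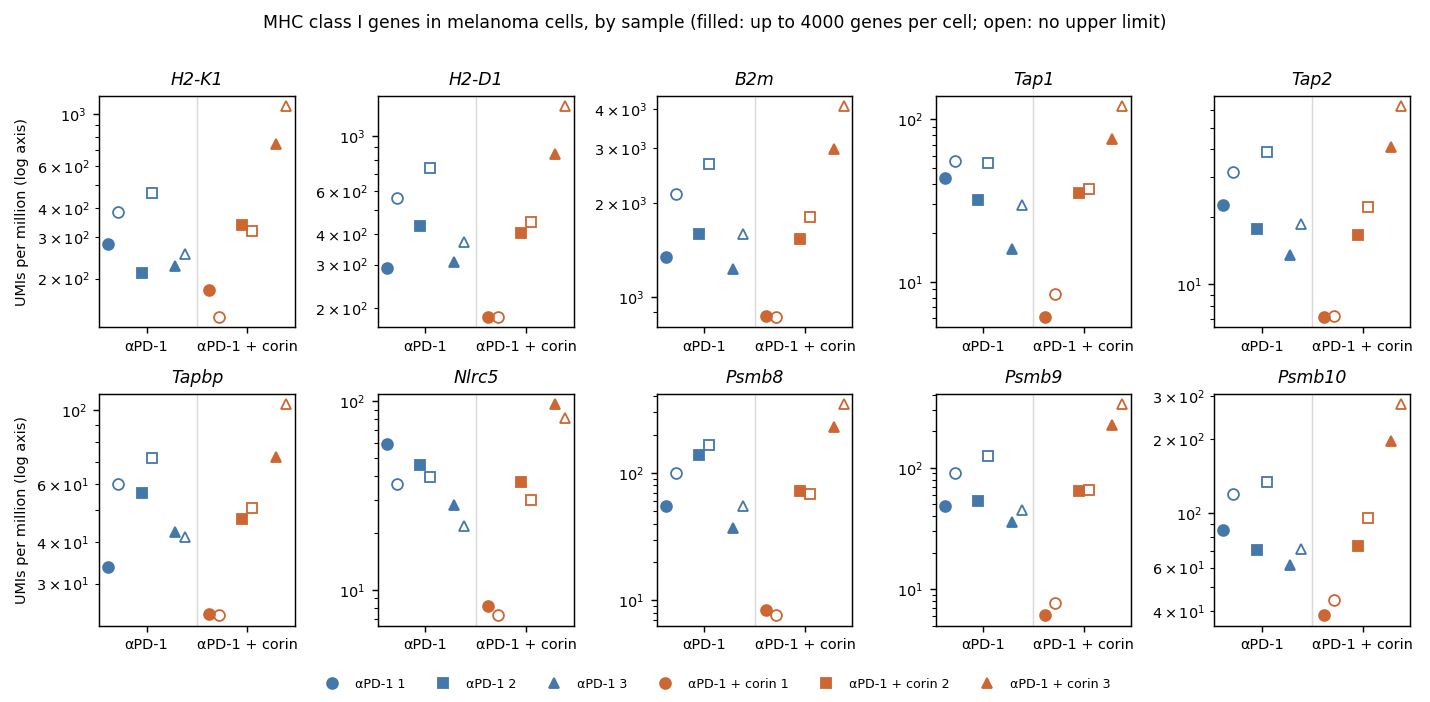
Level of the 10 genes in melanoma cells (CPM, log axis) in each αPD-1 and αPD-1 + corin sample, with 1 panel per gene. Filled symbols are cells with up to 4000 genes and open symbols have no upper limit. In every panel αPD-1 + corin sample 1 is the lowest and αPD-1 + corin sample 3 the highest.

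The peptide transporter and the loading factor followed the same order at lower levels. *Tap1*, 1 of the 2 subunits of the transporter, was at 43.4, 31.7 and 16.0 CPM with αPD-1 and at 6.09, 35.2 and 75.97 with αPD-1 + corin. The lowest of these values rested on 23 UMIs and the highest on 205. *Tap2*, the partner subunit, was at 22.5, 17.6 and 13.5 with αPD-1 and at 7.15, 16.6 and 41.1 with αPD-1 + corin. *Tapbp* was at 33.8, 56.4 and 43.0 with αPD-1 and at 24.4, 47.1 and 72.3 with αPD-1 + corin. It had the narrowest span of the members, with a 2.97-fold ratio of αPD-1 + corin sample 3 to sample 1, against 12.5-fold for *Tap1* and 5.75-fold for *Tap2*. The log2 differences between treatments were 0.40 ± 0.68 for *Tap1*, 0.29 ± 0.58 for *Tap2* and 0.16 ± 0.36 for *Tapbp* (adjusted p = 0.961, 0.972 and 0.980).

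Of the 10 members, the immunoproteasome subunits *Psmb8* and *Psmb9* had the widest spans. *Psmb8*, which takes the place of *Psmb5* in the immunoproteasome, was at 54.7, 137 and 36.9 CPM with αPD-1 and at 8.48, 72.4 and 229.8 with αPD-1 + corin. *Psmb9*, which takes the place of *Psmb6*, was at 48.2, 52.9 and 35.6 with αPD-1 and at 6.09, 64.4 and 226 with αPD-1 + corin. *Psmb10*, which takes the place of *Psmb7*, was at 85.2, 70.5 and 61.4 with αPD-1 and at 38.4, 73.7 and 197 with αPD-1 + corin. Between αPD-1 + corin samples 3 and 1 the ratio was 27.1-fold for *Psmb8*, 37.2-fold for *Psmb9* and 5.13-fold for *Psmb10*. The folds of the first pair stand on a level near that of free RNA: in αPD-1 + corin sample 1 the immune-only genes were at 1.41% of their level in immune cells, *Psmb8* at 2.38% and *Psmb9* at 3.04%. The log2 differences between treatments were 0.64 ± 0.77, 1.18 ± 0.81 and 0.53 ± 0.46 (adjusted p = 0.941, 0.872 and 0.916). *Nlrc5*, the transactivator of class I promoters, was at 59.5, 45.8 and 28.3 with αPD-1 and at 8.21, 37.2 and 95.99 with αPD-1 + corin, an 11.7-fold ratio of αPD-1 + corin sample 3 to sample 1. Its log2 difference between treatments was 0.11 ± 0.63 (adjusted p = 0.997).

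None of the 10 members passed the test between treatments in melanoma cells, where 0.0112% of 8968 genes did, and 1 member and 529 genes had an unadjusted p under 0.05. The log2 differences were positive for all 10 members with a median of 0.46, beside −0.00 over all genes tested. The groups overlapped for all 10, while they did not for 11% of genes. The spread was the larger feature: the median SD of the members' log2 levels was 0.28 between the αPD-1 samples and 1.17 between the αPD-1 + corin samples, beside 0.33 and 0.22 over all genes tested. Of 6572 genes at 20 CPM or more, 1.99% had both their lowest value in αPD-1 + corin sample 1 and their highest in αPD-1 + corin sample 3, as the 10 members did. The median difference of the members depended on these samples. It rose to 0.93 without αPD-1 + corin sample 1, the sample in which all 10 were lowest. There 7 members had an unadjusted p under 0.05, beside 414 of 8490 genes. The median was −0.50 without αPD-1 + corin sample 3, in which all 10 were highest, with 1 positive member. In both cases no member was called.

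Once the upper limit was lifted the melanoma sums were larger and the order was the same. *Psmb8* was at 98.9, 164 and 54.6 CPM with αPD-1 and at 7.66, 68.8 and 345 with αPD-1 + corin, on 264 UMIs in the lowest sample and 14613 in the highest, and the ratio of αPD-1 + corin sample 3 to sample 1 was 45.0-fold. The same ratio was 43.7-fold for *Psmb9*, 14.4-fold for *Tap1*, 11-fold for *Nlrc5*, 7.84-fold for *H2-K1*, 7.20-fold for *H2-D1* and 4.73-fold for *B2m*. *H2-K1* was at 382, 462 and 255 with αPD-1 and at 138, 318 and 1079.6 with αPD-1 + corin. All 10 members again had their lowest value in αPD-1 + corin sample 1 and their highest in sample 3, beside 4.89% of 6765 genes. The median SD was 0.48 with αPD-1 and 1.55 with αPD-1 + corin, beside 0.11 and 0.13 over all genes tested. No gene of 14499 was called by edgeR (0%), with 1929 genes and none of the members at an unadjusted p under 0.05, and the median of the members was 0.31. The immune-only genes stayed at 12.2 to 91.1 CPM in these sums.

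The other genes of the pathway showed where the contrast between αPD-1 + corin samples 3 and 1 was present and where it was not, in melanoma cells with no upper limit. Among 8 measured nonclassical class I genes, *H2-T23* had 146 CPM in αPD-1 + corin sample 3 and 17.3 in sample 1, and *H2-Q4* had 148 and 21.9. *Psme1* and *Psme2*, the interferon-inducible subunits of the proteasome activator, had 347 and 273 CPM in αPD-1 + corin sample 3 and 94.7 and 71.0 in sample 1, whereas *Psme3*, a nuclear activator, had 65.1 and 68.5. The constitutive subunits that the immunoproteasome replaces lay close together: *Psmb5* had 253 and 283, *Psmb6* 278 and 273, and *Psmb7* 239 and 234. Among the general chaperones of peptide loading, calreticulin (*Calr*) had 527 and 594 and *Pdia3* 428 and 537, while the trimming peptidase *Erap1* had 42.2 and 10.5. Of the regulators, the interferon-inducible transcription factor *Irf1* had 165 in αPD-1 + corin sample 3 and 19.3 in sample 1. The interferon-γ receptor subunits had 13.5 and 17.4 for *Ifngr1* and 38.5 and 48.5 for *Ifngr2*. None of the 5 lists (nonclassical genes, loading and trimming, proteasome activator, constitutive 20S subunits, regulators) had a member called between treatments in melanoma cells. Their median log2 differences were 0.51, −0.10, 0.02, −0.00 and −0.03, beside 0.00 over all genes.

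*Ifng*, which encodes interferon-γ, was read beside these values. T and NK cells held 224, 296 and 200.0 *Ifng* CPM with αPD-1 and 201, 430.4 and 559 with αPD-1 + corin. These cells were 21.4%, 25.6% and 16.2% of immune cells with αPD-1 and 3.15%, 9.90% and 34.3% with αPD-1 + corin. Over all immune cells *Ifng* was lowest in αPD-1 + corin sample 1 (11.9) and highest in αPD-1 + corin sample 3 (235), with 53.6 to 89.2 in the αPD-1 samples and 70.2 in αPD-1 + corin sample 2. Melanoma cells held at most 3 *Ifng* UMIs in a sample. Its part in the members' order was not tested.

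In αPD-1 + corin sample 3 the higher level was spread over most melanoma cells. Melanoma cells with no upper limit were thinned to 10000 UMIs each, and the UMIs of *Tap1*, *Psmb8*, *Psmb9* and *Psmb10* were added up per cell. Their mean was 3.74, 4.30 and 1.88 with αPD-1 and 0.663, 2.69 and 10.2 with αPD-1 + corin. Cells with none of them made up 30.6%, 26.1% and 44.7% with αPD-1 and 58.4%, 39.6% and 4.56% with αPD-1 + corin. A Poisson spread at the same mean would leave 2.38%, 1.36% and 15.3% of cells at 0 with αPD-1 and 51.5%, 6.82% and 0.00363% with αPD-1 + corin. More cells than this had none in all 6 samples. The tenth of cells with most of these UMIs held 39.1% to 54.7% of them with αPD-1 and 47.7%, 47.4% and 24.6% with αPD-1 + corin. *H2-K1* and *H2-D1* together had a median of 7, 8 and 4 UMIs per cell with αPD-1 and of 2, 5 and 22 with αPD-1 + corin. The constitutive subunits *Psmb5*, *Psmb6* and *Psmb7* together had a median of 7 or 8 UMIs per cell in every sample and a variance of 1.44 to 1.89 times the mean, against 2.26 to 7.04 times for the *Tap1* and immunoproteasome sum. The members other than *Tap2*, *Tapbp* and *Nlrc5*, which were left out here, also moved together from cell to cell. In αPD-1 + corin sample 1 they did so hardly more than the constitutive subunits. The median correlation over pairs of these members was 0.404, 0.393 and 0.323 with αPD-1 and 0.126, 0.393 and 0.261 with αPD-1 + corin, over 379 to 1376 cells of 1 library each. Pairs of the constitutive subunits gave 0.0974, 0.160 and 0.161 with αPD-1 and 0.114, 0.141 and 0.191 with αPD-1 + corin. These are descriptions of counts at 1 depth, and sparse counts lower a correlation.

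**Figure D2:**
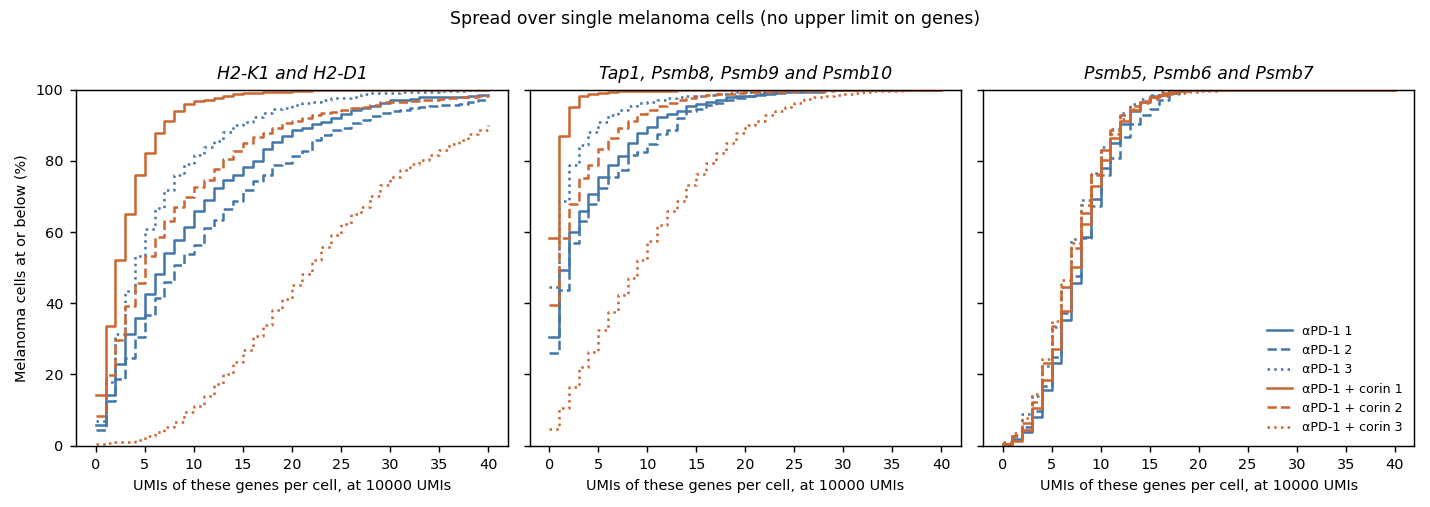
Cumulative share of melanoma cells (%) against the UMIs of the named genes per cell after thinning to 10000 UMIs, with 1 line per sample. For Tap1 and the immunoproteasome subunits the curves start at 4.56% of cells with none in αPD-1 + corin sample 3 and at 58.4% in sample 1, while the curves of the constitutive subunits lie on each other.

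In fibroblasts, the CD45-negative stromal cells of the preparation, members were also highest in αPD-1 + corin sample 3 for 9 of 10 genes and lowest in αPD-1 + corin sample 1 for 5 of 10, beside 8.87% and 14.7% of 6088 genes. The span was smaller than in melanoma cells: the mean log2 level of the members ranged over 1.25 in fibroblasts and 2.87 in melanoma cells. *H2-K1* was at 927, 1127 and 1004 CPM with αPD-1 and at 881, 1098 and 2167 with αPD-1 + corin. *Psmb8* was at 89.8, 121 and 123 with αPD-1 and at 99.1, 133 and 186 with αPD-1 + corin. *Nlrc5* was also lowest in αPD-1 + corin sample 1 but highest in αPD-1 sample 2, with 56.8, 81.2 and 59.9 with αPD-1 and 10.7, 23.7 and 58.98 with αPD-1 + corin. No member was called by edgeR in fibroblasts, where 2.25% of 6880 genes were, 1 member (*Nlrc5*) had an unadjusted p under 0.05 beside 1610 genes, and DESeq2 called none of the 9 members it could test. The groups overlapped for all 10 members and did not for 25.5% of genes. The median log2 difference of the members was 0.32, beside 0.01 over all genes. The difference of *Nlrc5* was −1.14 ± 0.52 (adjusted p = 0.206). Without αPD-1 + corin sample 3 it was −2.19 with adjusted p = 0.0144, beside 898 of 7176 genes called. Without αPD-1 + corin sample 1 the median of the members was 0.61 with none called, beside 57 genes higher and 26 lower of 7061. With no upper limit on genes all 10 members, *Nlrc5* among them, were highest in αPD-1 + corin sample 3. There 9 were lowest in αPD-1 + corin sample 1. The shares over 6422 genes were 12.4% and 14.3%. Fibroblast libraries also differed in dissociation stress genes, which summed to between 4782 and 10465 CPM, and their part in these values was not tested.

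In monocytes and macrophages the members kept close between samples, with a range of 0.45 in their mean log2 level. That mean was again lowest in αPD-1 + corin sample 1 and highest in αPD-1 + corin sample 3. By gene, 6 members were highest in αPD-1 + corin sample 3 and 6 lowest in sample 1, beside 8.49% and 34.9% of 5972 genes. *H2-K1* was at 1225, 1185 and 1107 CPM with αPD-1 and at 1337, 1341 and 1459 with αPD-1 + corin. *H2-D1* was at 1738, 1697 and 1626 with αPD-1 and at 2017, 1900.0 and 1800.2 with αPD-1 + corin. *B2m* was at 4028, 4213 and 3803 with αPD-1 and at 4489, 4365 and 4457 with αPD-1 + corin. For these 3 genes all αPD-1 + corin samples were above all αPD-1 samples, a lack of overlap seen for 28.4% of the 11838 genes tested. Their log2 differences were 0.39 ± 0.12, 0.34 ± 0.13 and 0.30 ± 0.12, with an unadjusted p under 0.05 and adjusted p = 0.173, 0.225 and 0.251. The make-up of the class differed between samples, with 1 macrophage cluster at 22, 7 and 28 cells with αPD-1 and 1382, 386 and 18 with αPD-1 + corin. In macrophage clusters alone the differences of *H2-K1*, *H2-D1* and *B2m* were 0.42, 0.45 and 0.33, and in monocyte clusters alone 0.03, −0.21 and −0.17, with no member called in either. No member was called, where 0.498% of genes were by edgeR (2150 with an unadjusted p under 0.05), and DESeq2 called none of the members. *Tap1* was at 119, 119 and 113 with αPD-1 and at 82.5, 111 and 146 with αPD-1 + corin, and *Nlrc5* was at 105, 123 and 115 with αPD-1 and at 59.3, 83.5 and 125 with αPD-1 + corin. Without αPD-1 + corin sample 3 the difference of *Nlrc5* was −0.53 with adjusted p = 0.0361, beside 2409 genes called. The median difference of the members was 0.16 with all samples and 0.27 without αPD-1 + corin sample 1. The latter fit called no member, beside 13 genes higher and 24 lower of 12031.

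In the dendritic cell class, whose sums also held macrophage transcripts, no member was called by edgeR, 1 had an unadjusted p under 0.05, DESeq2 called none, and no member had separate groups. The background was 0.557% of 10228 genes called and 19.5% with separate groups. Here too the mean log2 level of the members was lowest in αPD-1 + corin sample 1 and highest in sample 3, over 0.40. All 10 were lowest in αPD-1 + corin sample 1 and 5 highest in sample 3, beside 25.2% and 12.6% of 6285 genes. The median log2 difference between treatments was 0.07, and 0.16 without αPD-1 + corin sample 1 with no member called. *Psmb8* was at 757, 761 and 768 CPM with αPD-1 and at 653, 769 and 858 with αPD-1 + corin, the highest level of the gene among the lineages.

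Of the 5 lineages tested, T cells were the lineage in which members were called, against a background of 23.3% of 9635 genes. *Psmb8* was at 533, 602 and 514 CPM with αPD-1 and at 634, 707 and 749.7 with αPD-1 + corin. It rose by 0.42 ± 0.15 on the log2 scale, with adjusted p = 0.0495. *Nlrc5* was at 207, 169.9 and 235 with αPD-1 and at 107, 135 and 152 with αPD-1 + corin. It fell by 0.48 on the log2 scale (SE 0.16), with adjusted p = 0.0404. For both genes the samples of the groups were apart, as they were for 7 of the 10 members and for 39.2% of genes. Neither call held under no upper limit on genes, another clustering or a mitochondrial limit of 5%, and αPD-1 + corin sample 1 held 74 T cells. Without that sample 2 members were called higher and none lower, so the call of *Nlrc5* was lost. That fit called 817 genes higher and 1368 lower of 10298. Different clusters made up the class in the groups: a cluster led by *Gzmb* and *Gzmc* held 137, 208 and 126 cells with αPD-1 and 63, 152 and 789 with αPD-1 + corin, while a cluster led by *Dapl1* and *Tcf7* held 329, 316 and 202 and 9, 13 and 21. The part of this make-up in the T cell values was not tested. *Psmb9* (0.41 ± 0.15) and *Tapbp* (0.38 ± 0.15) had adjusted p = 0.0610 and 0.0767. Of the constitutive 20S subunits, 12 of 14 rose in T cells, with a median log2 difference of 0.50, beside 0.27 for the members and 0.01 for all genes. *Psmb5* rose by 0.63 ± 0.14, *Psmb6* by 0.61 ± 0.15 and *Psmb7* by 0.44 ± 0.15 on the log2 scale (adjusted p = 0.00507, 0.00964 and 0.0400). Among the regulators 2 of 20 rose, *Irf8* (1.06 ± 0.18) and *Ifngr1* (0.47 ± 0.16), and 4 fell, with log2 differences of −1.94 for *Ifngr2*, −0.67 for *Jak1*, −0.60 for *Stat2* and −0.49 for *Irf2*. The nonclassical gene *H2-T24* (−2.57) and the trimming peptidase *Lnpep* (−0.56) also fell, and no proteasome activator gene passed the test. With no upper limit on genes none of the genes of these 5 lists was called in T cells, and the median of the constitutive subunits was 0.17.

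**Figure D3:**
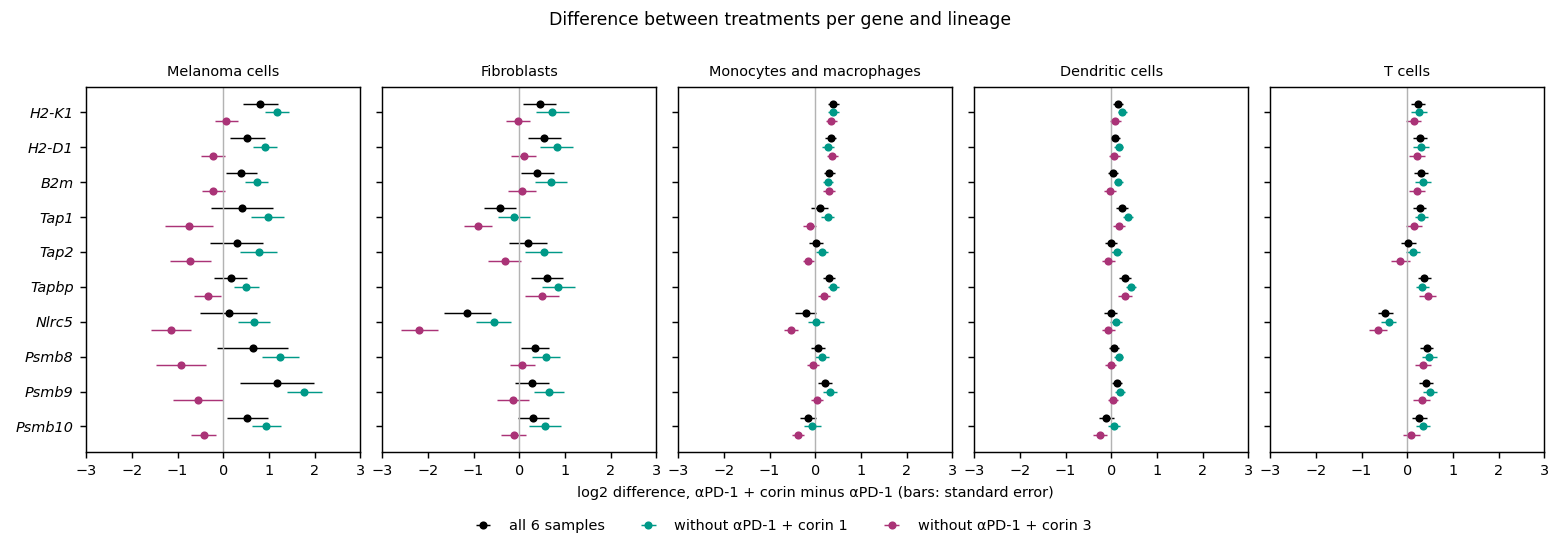
Log2 difference of αPD-1 + corin against αPD-1 for each gene in 5 lineages, with bars for the standard error. Black is all 6 samples, and the 2 colors leave out αPD-1 + corin sample 1 or sample 3. In melanoma cells the median of the members is 0.46 with all samples, 0.93 without sample 1 and −0.50 without sample 3.

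Across lineages melanoma cells held the lowest levels of 8 of the 10 members. *H2-K1* averaged 3109 ± 257 CPM in NK cells, 2549 ± 225 in T cells, 1936 ± 189.7 in dendritic cells, 1276 ± 127 in monocytes and macrophages, 1201 ± 483 in fibroblasts and 329.9 ± 210.3 in melanoma cells (SD, n = 6 each). B cells (1828 ± 311), neutrophils (1489 ± 261) and endothelial cells (1289.5 ± 402) came between dendritic cells and monocytes and macrophages, each with n = 5. The steps from NK to T cells, from T to dendritic cells and from fibroblasts to melanoma cells were larger than the SDs, whereas dendritic cells and B cells, and the neighbours from neutrophils down to fibroblasts, did not differ beyond their spread. *Psmb8* averaged 761 ± 65.2 in dendritic cells, 624 ± 93.3 in T cells, 558 ± 26.1 in NK cells, 335 ± 40.6 in monocytes and macrophages, with neutrophils, B cells and endothelial cells between 355 ± 119 and 221 ± 64.5, and 125 ± 33.7 in fibroblasts and 89.9 ± 81.0 in melanoma cells. The means of the last pair were closer than the SD between samples. Compared within samples, however, *Psmb8* was among the 7 members called lower in melanoma cells than in fibroblasts. For *Psmb9* and *Psmb10* fibroblasts were lowest, at 51.4 ± 17.4 and 62.4 ± 21.1, with melanoma cells next at 72.3 ± 78.1 and 87.7 ± 55.9. With the upper limit lifted melanoma cells were again lowest for the same 8 genes, and *H2-K1* averaged 439 ± 333 in them.

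**Figure D4:**
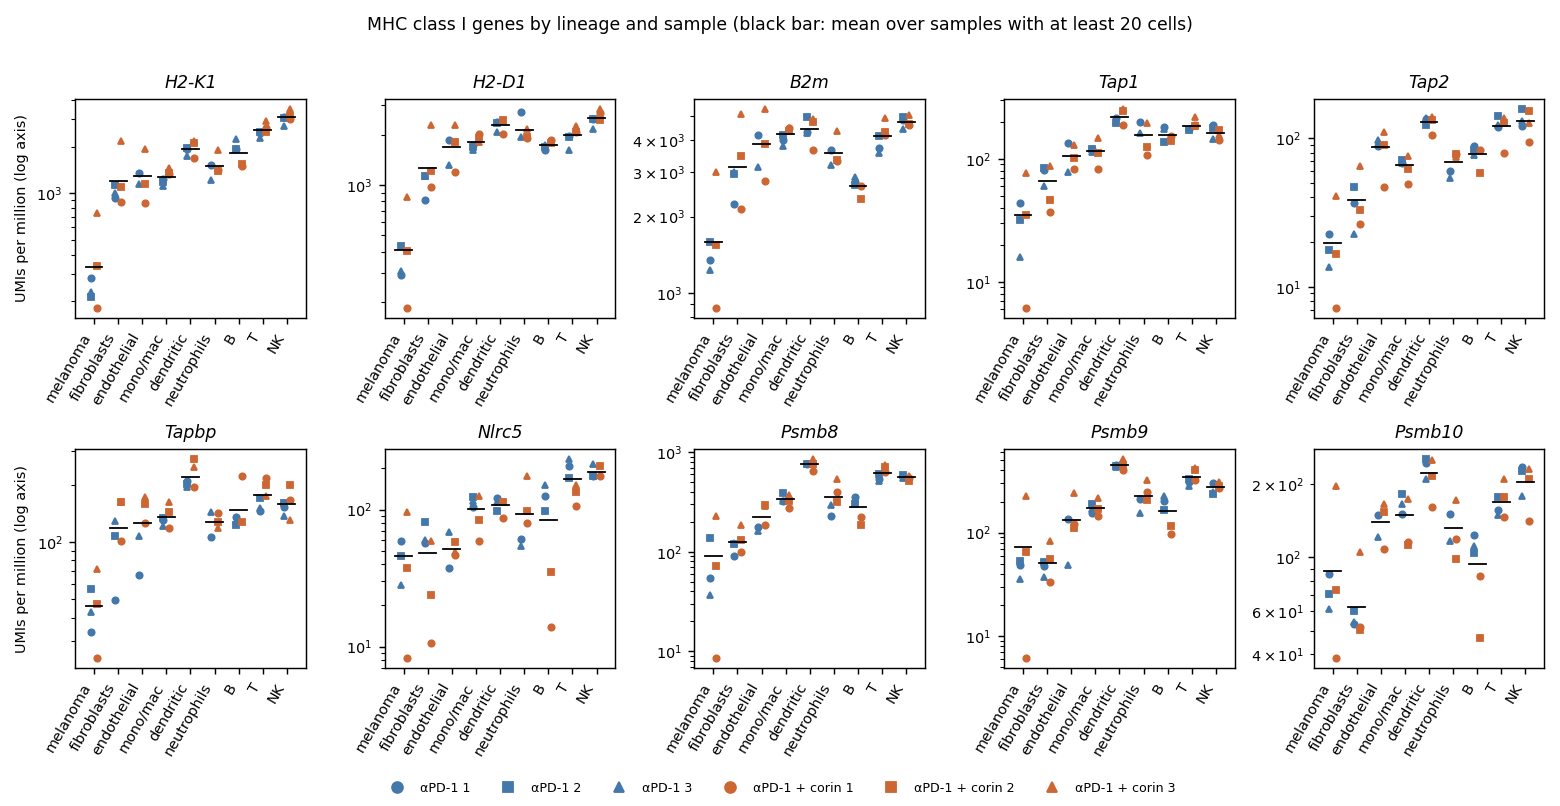
Level of each gene (CPM, log axis) in 9 lineages, with 1 symbol per sample and a bar at the mean over samples with at least 20 cells. Melanoma cells have the lowest mean for 8 of the 10 genes. For Tapbp their samples lie between 24.4 and 72.3 and those of fibroblasts between 49.5 and 163.

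Compared within samples, all 10 members were lower in melanoma cells than in monocytes and macrophages, where 39% of 12688 genes were lower. The median log2 difference was −2.26, from −2.87 ± 0.36 for *Psmb8* and −2.78 ± 0.22 for *H2-D1* to −1.36 ± 0.19 for *Psmb10*, beside −0.05 over all genes. With no upper limit on genes all 10 were lower too, with a median of −1.79, as were 6282 of 15657 genes. Against fibroblasts 7 of 10 were lower, where 34.2% of 9394 genes were lower, with a median of −1.54. *H2-K1* differed by −2.45 ± 0.21 and *Tapbp* by −1.92 ± 0.19, whereas *Nlrc5* (−0.52 ± 0.23, adjusted p = 0.0584), *Psmb9* (−0.53 ± 0.36, adjusted p = 0.220) and *Psmb10* (−0.13 ± 0.18, adjusted p = 0.547) did not pass the test. With no upper limit on genes 7 were lower and *Psmb10* was higher in melanoma cells (0.38 ± 0.15, adjusted p = 0.0406), with a median of −1.02, where 5348 of 15412 genes were lower and 5909 higher. Of the constitutive 20S subunits 6 of 14 were higher in melanoma cells than in fibroblasts and none lower, where 2670 of 9394 genes were higher. Fibroblasts were lower than monocytes and macrophages for 7 of 10 members, where 29.7% of 13395 genes were lower, with a median of −0.80. The exceptions were *H2-K1* (−0.13 ± 0.20), *B2m* (−0.46 ± 0.22) and *Tapbp* (−0.22 ± 0.17). The treatment difference itself was compared between lineages with an interaction term, and none of the 10 members was called. Between melanoma cells and monocytes and macrophages the lowest adjusted p was 0.879, where 0.00788% of genes were called, and between melanoma cells and fibroblasts it was 0.565, where 0% were. No member had an unadjusted p under 0.05 in either, beside 774 genes in the former and 834 in the latter. Between melanoma cells and monocytes and macrophages the median interaction term over all genes was 0.12 with TMM and −0.00 with RLE size factors, and that of the members moved with it, from 0.06 to −0.06.

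The balance of proteasome subunits was read as the share of each pair's UMIs that came from the immunoproteasome subunit. This measure does not depend on the total of a library, but it moves with either subunit of the pair. *Psmb8* made up 24.1%, 40.6% and 18.9% of *Psmb8* and *Psmb5* UMIs in melanoma cells with αPD-1, and 3.60%, 27.5% and 58.0% with αPD-1 + corin. The lowest share had a 95% Wilson interval of 2.56% to 5.04% on 889 UMIs and the highest of 55.0% to 60.9% on 1069 UMIs, which cover counting error only. *Psmb9* made up 20.3%, 22.4% and 15.5% of its pair with *Psmb6* with αPD-1 and 2.62%, 24.4% and 51.1% with αPD-1 + corin. *Psmb10* made up 30.1%, 27.0% and 27.2% of its pair with *Psmb7* with αPD-1 and 17.3%, 31.4% and 55.0% with αPD-1 + corin. With the upper limit lifted the *Psmb8* share was 25.7%, 37.9% and 18.3% with αPD-1 and 2.64%, 21.5% and 57.6% with αPD-1 + corin. The groups overlapped for all 3 pairs (exact permutation test, two-sided, p = 0.9, 0.7 and 0.7, where 3 against 3 samples cannot go below 0.1). In fibroblasts the *Psmb8* share was 61.2%, 71.9% and 53.7% with αPD-1 and 36.6%, 55.3% and 67.7% with αPD-1 + corin. All 14 constitutive 20S subunits had a positive log2 difference between treatments in fibroblasts, with a median of 0.70 and 0 called. A low share there is therefore not by itself a low level of *Psmb8*. Over the 6 samples it averaged 71.3% ± 4.92 in monocytes and macrophages, 77.9% ± 2.75 in T cells, 81.8% ± 1.80 in dendritic cells and 81.8% ± 1.71 in NK cells (SD). The melanoma cells of αPD-1 sample 2 and αPD-1 + corin sample 3 lay within the range of the fibroblast samples for *Psmb8*, and those of the other 4 samples lay below it.

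**Figure D5:**
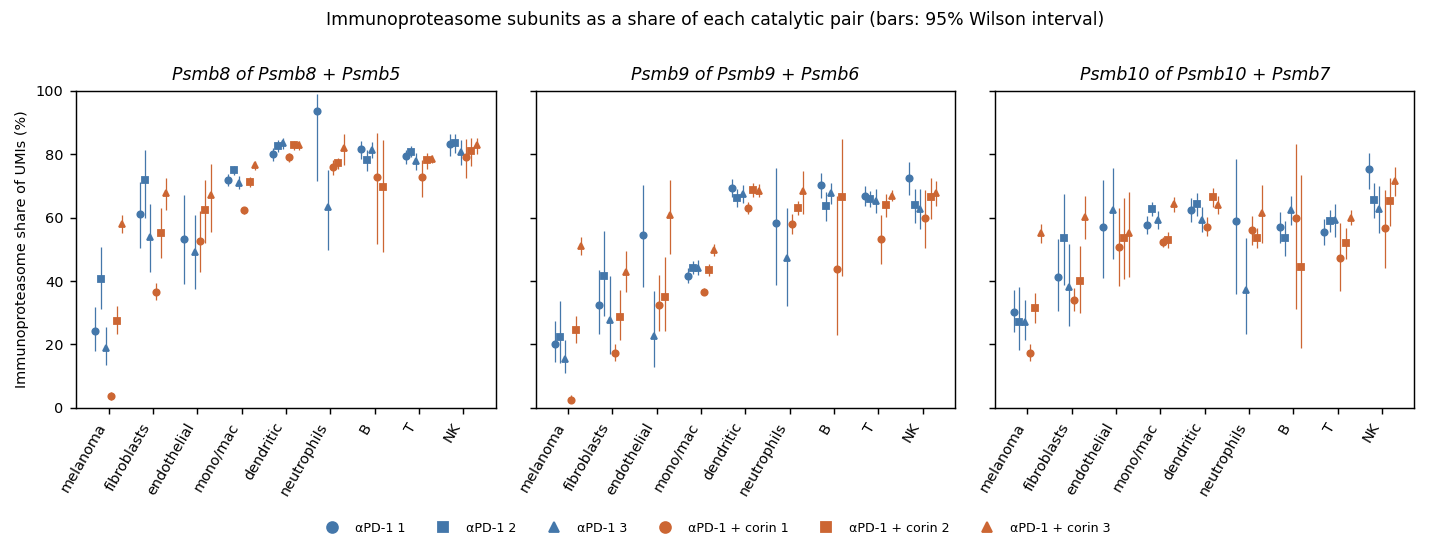
Share of UMIs from the immunoproteasome subunit in each of 3 catalytic pairs (%, from 0 to 100) by lineage and sample, with 95% Wilson intervals. In melanoma cells the Psmb8 share runs from 3.60% to 58.0%, both in αPD-1 + corin samples, while T, NK and dendritic cells average 77.9% to 81.8%.

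Shares of cells with a UMI were read after each cell was thinned to 1000 UMIs, which left out 1 to 4 melanoma cells per sample. *H2-K1* was seen in 17.2%, 25.5% and 17.9% of melanoma cells with αPD-1 and in 10.6%, 14.5% and 43.3% with αPD-1 + corin (exact permutation test, two-sided, p = 1). Without thinning it was seen in 44.2% to 60.7% and in 37.6% to 77.7%. *Psmb9* was seen in 5.75%, 7.84% and 5.13% with αPD-1 and in 0.914%, 3.23% and 20.4% with αPD-1 + corin (exact permutation test, p = 1). *B2m* was seen in 54.9% to 57.5% with αPD-1 and in 51.4%, 51.6% and 83.3% with αPD-1 + corin. *Tap2* and *Tapbp* did not follow that order, with their highest shares, 3.92% and 9.80%, in αPD-1 sample 2 and 3.23% and 5.72% in αPD-1 + corin sample 3. *Tap1* had its lowest share in αPD-1 sample 1 rather than in αPD-1 + corin sample 1. Genes that melanoma cells should lack gave the background: *Lyz2* was seen in 0% to 3.66% of melanoma cells, *Tyrobp* in 0% to 1.71% and *Cd3e* in 0% to 0.403%. The 0.914% for *Psmb8* and for *Psmb9* in αPD-1 + corin sample 1 lay within that background, as did the 0.548% for *Tap1* and for *Nlrc5*. No member had separate groups in melanoma cells. In fibroblasts 2 did, a count for which no share over all genes was computed and from which nothing is read. *H2-D1* was seen in 41.9% to 44.7% of cells with αPD-1 and in 50% to 77.6% with αPD-1 + corin, and *Nlrc5* in 7.89% to 8.33% and 1.36% to 5.13% (exact permutation test, p = 0.1 for each, the smallest that 3 against 3 samples allow). *Lyz2*, which fibroblasts should lack, was also separate, with 0% of fibroblasts with αPD-1 and 3.40% to 6.63% with αPD-1 + corin. Without thinning the groups overlapped for both members, with 84.1% to 97.4% and 86.7% to 95.9% of fibroblasts for *H2-D1* and 25% to 39.5% and 7.48% to 32.0% for *Nlrc5*.

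The genes most like the members were found by correlating log2 levels with the mean of the members over 57 sums of 10 lineages, among 7229 genes at 20 CPM or more on average. They were *Psme2* (r = 0.922), *H2-T23* (0.902), *Ifi47* (0.882), *Traf1* (0.878) and *Psme1* (0.878), beside a median of −0.000896 over all genes. Each member was compared in the same way with the mean of the others, from 0.95 for *Psmb8* and 0.941 for *Tap2* down to 0.795 for *Psmb10* and 0.684 for *Nlrc5*. The sums share libraries and lineages, so these values are a description with no test.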

How the data were processed

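The authors processed the reads with Cell Ranger 8.0 per the labels and deposited filtered matrices of raw UMI counts (unit: counts). The paper gives GRCm39 as the genome, and gene positions were taken from GENCODE vM39. The members, gene lists and markers were chosen with earlier results of these data known.

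A cell had to show 600 to 4000 genes, with mitochondrial UMIs of 10% or less, after the top 0.4% of barcodes per 1000 by Scrublet score (scanpy 1.11.5) were removed as doublets, since its own threshold called 0. Melanoma cells were gated on UMIs, with 116 of the gated barcodes at 10 to 12 UMIs. The other lineages were SCTransform clusters (Seurat 5.3.0, sctransform 0.4.2, 20 principal components, resolution 0.8) with members, pathway genes and markers left out of the variable genes. A cluster was named from at least 3 markers at 1.5 times the other clusters in 10% of its cells, a rule set after seeing the data. Clusters of mixed lineages, and melanoma-like cells outside the gate, were left out.

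Counts were summed per sample and lineage and tested with edgeR 4.0.16 (quasi-likelihood test, TMM, filterByExpr, Benjamini-Hochberg over all genes tested, threshold 0.05), leaving out samples under 20 cells. Lineages were compared with the sample as a block. Standard errors were derived from the F statistic. The test was tried on simulated data with 200 genes changed 4-fold: it found 187 in melanoma sums (8776 genes, 9 false calls) and 183 in monocyte and macrophage sums (11600 genes, 10 false calls). The changed genes were drawn from all genes. Between αPD-1 + corin melanoma samples the members varied more (median SD 1.17, against 0.22 over all genes), so this recovery does not carry over to them. Levels are CPM of these sums, computed here and compared within a gene and not between genes. DESeq2 1.42.0, RLE size factors, other filters, gates, depths and clusterings, subtraction of free immune RNA and leaving out each sample were alternatives. Genes named outside the members came from lists of the pathway, at most 4 per list besides those past the threshold. Promoters came from RefSeq. R was version 4.3.3 and Python 3.11.15.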

Additional observations from a re-analysis of the deposited data

How the results depend on the processing

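In melanoma cells no member was called under any alternative except without the filter on low counts, where 2 were (*H2-K1*, 0.86 with adjusted p = 0.00788, and *Psmb9*, 1.22 with adjusted p = 0.000274, beside 136 genes in all). Leaving out each sample gave 0 to 0. In fibroblasts and in monocytes and macrophages it gave 0 to 1, with *Nlrc5* called without αPD-1 + corin sample 3 and also when the upper limit on genes was lifted without that sample (1 in each, an alternative chosen after seeing the data), and all other alternatives gave 0. In dendritic cells every alternative gave 0. The 2 calls in T cells were the least stable. They went to 0 with no upper limit on genes (also with each sample left out, 0 to 0), a mitochondrial limit of 5%, LogNormalize clusters, resolutions 0.4 and 1.2 and UMI gates, to 1 with no filter on low counts or with DESeq2, and to 7 when cells were thinned to 1000 UMIs. Over all genes, the fit at 1000 UMIs called 1052 higher and 1146 lower of 6845. The fit with no filter called 1089 higher and 1502 lower of 19056, and DESeq2 called 489 and 860 of 9634. Leaving out each sample gave 0 to 4, and the count was 0 without αPD-1 sample 1, αPD-1 sample 3 or αPD-1 + corin sample 2. The 4 came without αPD-1 sample 2, where 1042 genes were called higher and 1367 lower of 9583. Samples with the same number did not deviate together (correlations of −0.18, 0.05 and −0.15 in melanoma cells), nor did every sample correlate best with its own number. The samples share only a number. With a replicate block 1 member was called in T cells and 0 in the other 4 lineages. The T cell fit with that block called 719 genes higher and 1161 lower of 10063. The 10 members lower in melanoma cells than in monocytes and macrophages stayed 10 under every alternative run. The interaction term between melanoma cells and either other lineage called 0 under every alternative run. That between fibroblasts and monocytes and macrophages called 0 with all samples and 1 without αPD-1 + corin sample 3 (*Nlrc5*, −1.58 with adjusted p = 0.00138). The fit without that sample called 182 genes higher and 174 lower of 13786. The differences of melanoma cells against fibroblasts were within 7 to 9 when samples were left out and those between fibroblasts and monocytes and macrophages within 6 to 8. Members with separate shares of cells with a UMI numbered 0 to 4 in melanoma cells and 2 to 4 in fibroblasts when samples were left out, and in fibroblasts 0 without thinning and 1 at 2000 UMIs. No share over all genes was computed beside these counts, and nothing is read from them. The cause of these shifts was not tested. No direction reversed among the results with a call.

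Melanoma values under the upper limit on genes rest on 52 to 119 cells per αPD-1 sample, and each group has 3 samples. The upper limit of 4000 genes removes most melanoma cells, whose median was 18660 to 48580 UMIs without it.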

Other observations

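Under the upper limit on genes, B cells, neutrophils and endothelial cells reached 20 cells in 5 samples each and entered no comparison. In neutrophils *Nlrc5* was at 60.6 and 54.1 CPM in the αPD-1 samples 1 and 3 and at 79.9, 97.8 and 175 with αPD-1 + corin. With no upper limit on genes, 6 samples reached 20 neutrophils. Their *Nlrc5* ran from 49.4 to 192 CPM with αPD-1 sample 3 the highest, so the groups overlapped. In B cells *Nlrc5* was at 125, 98.0 and 150.3 with αPD-1 and at 14 and 35 in αPD-1 + corin samples 1 and 2, on 49 and 48 cells, and *Psmb9* was at 203, 167 and 226 with αPD-1 and at 97.9 and 117 with αPD-1 + corin. *Psmb9* and *Psmb6* together held 16 and 15 UMIs in B cells of these αPD-1 + corin samples. The *Nlrc5* values there are lower than those of *Psmb9* and rest on fewer molecules still. In endothelial cells *Psmb8* was at 179 and 161 in αPD-1 samples 1 and 3 and at 184, 292 and 290.03 with αPD-1 + corin. With no upper limit on genes it ran from 137 to 291 CPM over 5 samples. There αPD-1 + corin sample 1 was the lowest, so the groups overlapped. The αPD-1 neutrophils were 21 and 28 cells and the endothelial cells 21 to 48 per sample. These differences were not tested.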
